A study of Mus musculus with 30 samples.

Results

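Cyclin D1 (Ccnd1) and the cyclin-dependent kinase inhibitor p21 (Cdkn1a) act on opposite sides of entry into the cell cycle, and their transcripts were followed here in mouse liver by 4 probe sets of the Affymetrix MG_U74Av2 array. The probe sets 94231_AT and 94232_AT were taken for Ccnd1 and 98067_AT and 94881_AT for Cdkn1a, 4 of the 12488 probe sets in the deposited table. The probe sets were named by ID, with earlier results of these data known. The pairing of these IDs with the genes came with the selection and was not checked here, because the files used pair no probe set with a gene.

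The 30 arrays held liver RNA of male C57Bl/6 mice. The mice had received CP-775146, CP-868388 or CP-865520, which the title of the series calls agonists of the nuclear receptor PPAR-alpha. The dose was 1 mg/kg per day for 24 h or 5 days, and control mice received water as vehicle. CP-775146 at 5 days was measured on 2 arrays and each of the other 7 groups on 4, which the design text counts as mice. No genotype, age or further agent is given in the labels, and the compounds are known here only by their code names. The RNA came from whole liver, so fewer cells of a type and less RNA per cell cannot be told apart.

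D-type cyclins bind the kinases CDK4 and CDK6, which phosphorylate the retinoblastoma protein and so release E2F factors at the start of the cycle. The p21 protein binds and inhibits cyclin-CDK complexes, and its gene is a classical transcriptional target of the tumour suppressor p53. Hepatocytes are quiescent in the resting adult liver, Ccnd1 is induced when they are driven to divide, and PPAR-alpha agonists are known to cause liver growth in rodents.

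Cdkn1a was matched and Ccnd1 was not in the RefSeq promoter table of build GRCm38.p6, where it has 2 transcription starts on the plus strand. Both Cdkn1a windows are shown because they differ in the motifs they hold. Each window runs from 250 bases before the start to 50 bases after it. Capitals mark the p53 consensus element in the upstream window, at chr17:29090729-29091028, and the Sp1 GC boxes and the TATA box core in the downstream window, at chr17:29093519-29093818.
Cdkn1a upstream start: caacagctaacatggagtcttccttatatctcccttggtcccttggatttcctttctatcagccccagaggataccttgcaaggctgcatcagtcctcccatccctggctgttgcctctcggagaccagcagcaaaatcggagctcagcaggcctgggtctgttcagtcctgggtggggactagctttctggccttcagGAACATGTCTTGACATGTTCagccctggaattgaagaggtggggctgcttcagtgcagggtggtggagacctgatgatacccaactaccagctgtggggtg
Cdkn1a downstream start: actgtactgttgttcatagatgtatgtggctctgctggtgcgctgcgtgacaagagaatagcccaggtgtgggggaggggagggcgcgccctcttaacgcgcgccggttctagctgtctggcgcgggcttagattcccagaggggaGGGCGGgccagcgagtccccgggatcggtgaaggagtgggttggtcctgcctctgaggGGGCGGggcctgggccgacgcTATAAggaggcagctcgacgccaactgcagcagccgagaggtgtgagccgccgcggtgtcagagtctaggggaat

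Both strands of each window were searched. The p53 consensus element, searched by its name with at most 1 mismatch over 20 bases, a tolerance set after the sequence had been seen, began at position -51 from the upstream start and was matched on both strands. It occurred in 0.0883% of the 32851 promoter windows in the table. The Sp1 GC box, searched as GGGCGG, occurred at positions -104 and -46 from the downstream start, and 35.7% of all windows held it. The TATA box core, searched as TATAA, began at position -25 from the downstream start and was held by 24.9% of all windows. It also matched the minus strand of the upstream window at position -227, which is left in lower case. None of these matches overlapped another. The letters of the PPAR DR1 element, searched as direct repeats of AGGTCA with 1 base between them, and of an E2F site, searched as TTTGGCGC, were not in either window, and 0.0396% and 0.514% of all windows held them. A match is a description of the sequence and not a measured binding site.

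Intensities were deposited on a linear scale, and none lay below 50, which is called the floor here and held 50.3% of all values. From 5600 to 6741 of 12488 probe sets per array exceeded the floor, and the mean intensity per array lay between 314.1 and 318.2. All 4 probe sets lay close to the floor. The Ccnd1 set 94231_AT ranged from 50 to 132 with a median of 61 and was at the floor on 9 of 30 arrays. The Ccnd1 set 94232_AT ranged from 50 to 138 with a median of 102 and was at the floor on 2 of 30 arrays. For Cdkn1a, 98067_AT ranged from 50 to 114 with a median of 66 and was at the floor on 9 arrays, and 94881_AT ranged from 50 to 148 with a median of 95 and was at the floor on 2. Both sets of a gene were above the floor together on 20 arrays for Ccnd1 and on 19 for Cdkn1a.

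**Figure D1:**
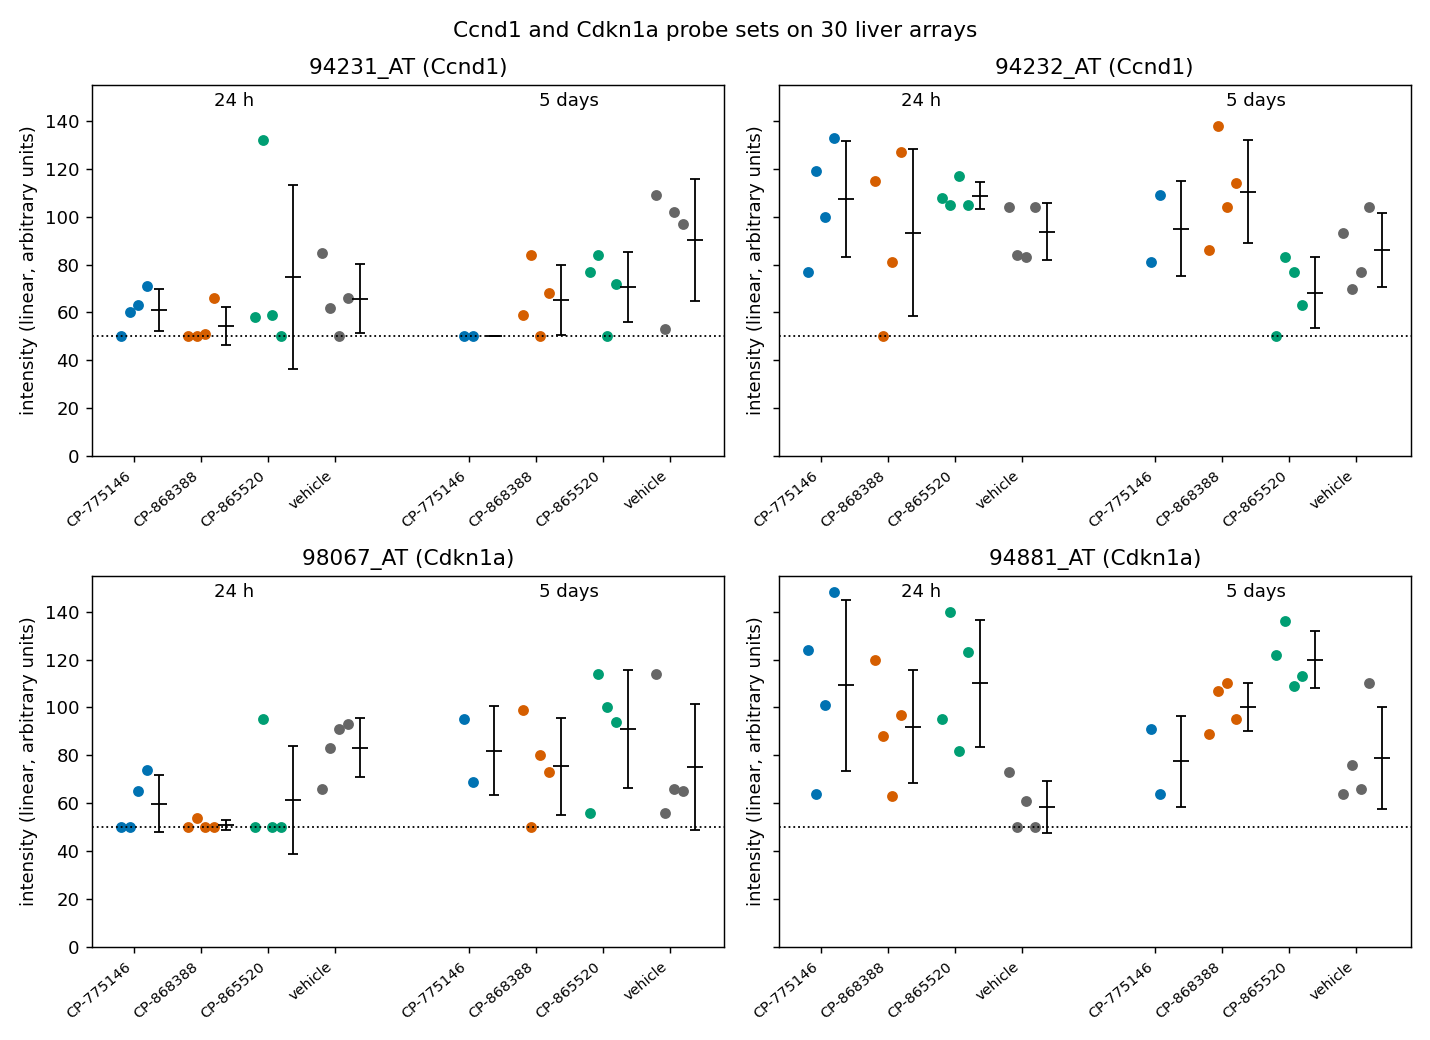
Intensity (linear scale) of the 4 probe sets on each array, 1 point per array, with groups along the x axis by compound and time. Black marks to the right of the points are the mean and SD, and the dotted line is the floor at 50. The vehicle arrays of 94881_AT at 24 h lie between 50 and 73, and those of 98067_AT between 66 and 93.

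Differences are given on the log2(value + 50) scale, which understates changes of such dim probe sets, and were fitted with limma to all 30 arrays. A change was called at an adjusted p under 0.05, with p adjusted by Benjamini-Hochberg over 7963 tested probe sets, all 4 members among them. Of the 24 comparisons of a member with vehicle, 6 were called, 4 higher and 2 lower under the compound. The 94881_AT set of Cdkn1a accounted for the 4 that were higher. Each count of members is given beside the share of all tested probe sets called in the same comparison. At 24 h it was 1 of 4 with CP-775146, where 20% of all were called, 2 of 4 with CP-868388 (40.6%) and 1 of 4 with CP-865520 (20.3%). At 5 days it was 1 of 4 with CP-775146 (37.1%), 0 of 4 with CP-868388 (37.8%), where no member had an unadjusted limma p under 0.05, and 1 of 4 with CP-865520 (42.1%). With 4 members a share moves in steps of 1 member, and 1 or 2 of 4 lies near these backgrounds. Lower calls made up 28.2% of all tested probe sets under CP-868388 at 24 h and 24.8% under CP-775146 at 5 days, the comparisons in which a member was called lower. Higher calls, the direction of 94881_AT, made up 7.36% with CP-775146, 12.4% with CP-868388 and 8.93% with CP-865520 at 24 h, and 15.3% under CP-865520 at 5 days.

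Cdkn1a, by its probe set 94881_AT, was higher under all 3 compounds at 24 h. It read 124, 64, 101 and 148 with CP-775146, 120, 88, 63 and 97 with CP-868388 and 95, 140, 82 and 123 with CP-865520, against 73, 50, 61 and 50 under vehicle. The CP-865520 arrays all lay above the vehicle arrays, while 1 array each of CP-775146 and CP-868388 lay within the vehicle range. The mean was 109 ± 35.8 with CP-775146, 92 ± 23.6 with CP-868388 and 110 ± 26.3 with CP-865520, against 58.5 ± 10.97 under vehicle (SD, n = 4 each).

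As ratios of mean intensity, these were increases of 1.87-fold with CP-775146, 1.57-fold with CP-868388 and 1.88-fold with CP-865520. The limma log2 change was 0.53 ± 0.15 (SE) with CP-775146 (adjusted p = 0.0110), 0.38 ± 0.15 with CP-868388 (adjusted p = 0.0425) and 0.55 ± 0.15 with CP-865520 (adjusted p = 0.00851). These comparisons share the 4 vehicle arrays, 2 of which were at the floor. The CP-865520 call was kept in all 21 alternatives tried, and that of CP-775146 in 19 of 21. The CP-775146 call was lost without its replicate 4 (0.42, adjusted p = 0.0609) and when limma was given no groups but the compared ones (adjusted p = 0.0787). The CP-868388 call was kept in 10 of 21, with adjusted p from 0.000875 to 0.178.

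By the group means of the Gapdh controls, RNA integrity at 24 h was lowest on the CP-868388 arrays. The log2 ratio of the Gapdh control sets, 5' over 3', averaged -0.36 ± 0.23 on them, against 0.02 ± 0.11 under vehicle (SD, n = 4 each). Single arrays differed from this order, as CP-865520 replicate 4 (-0.45) lay below CP-868388 replicates 2 (-0.19) and 4 (-0.13). The same ratio of the beta-actin control was on average lower than under vehicle with every compound at both times. At 24 h its mean was -0.79 with CP-775146, -1.14 with CP-868388 and -0.88 with CP-865520, against -0.61 under vehicle. In the same order the means at 5 days were -1.08, -0.97 and -1.29, against -0.80 under vehicle. With the integrity measure as a covariate, the CP-868388 change of 94881_AT was 0.41 with adjusted p = 0.178. Without the 3 arrays with a Gapdh ratio under -0.4, namely replicates 1 and 3 of CP-868388 and replicate 4 of CP-865520, it was 0.40 with adjusted p = 0.0996, so the size was close to that with all arrays while the call was lost. The call was also lost without any 1 of CP-868388 replicates 1, 2 and 4 or vehicle replicates 2, 3 and 4, when adjusted p lay between 0.0622 and 0.162. The part of RNA integrity in the result was otherwise not tested.

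The other Cdkn1a probe set, 98067_AT, had lower means under all 3 compounds at 24 h, and the difference passed the test under CP-868388. It read 50, 50, 65 and 74 with CP-775146, 50, 54, 50 and 50 with CP-868388 and 50, 95, 50 and 50 with CP-865520, against 66, 83, 91 and 93 under vehicle. The CP-868388 arrays all lay below the vehicle arrays and 3 of them were at the floor. Under CP-865520, 3 arrays were at the floor and replicate 2 lay above every vehicle array. The mean was 59.8 ± 11.8 with CP-775146, 51 ± 2.0 with CP-868388 and 61.2 ± 22.5 with CP-865520, against 83.2 ± 12.3 under vehicle (SD, n = 4 each).

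The log2 change of 98067_AT under CP-868388 was -0.40 ± 0.14 (SE, adjusted p = 0.0297), and the ratio of mean intensity was 0.613. The log2 change was -0.28 under CP-775146 (adjusted p = 0.200) and -0.28 under CP-865520 (adjusted p = 0.196). Without CP-865520 replicate 2, the CP-865520 change was -0.41 and passed (adjusted p = 0.0468). The CP-868388 call was lost in 12 of 21 alternatives, with the integrity covariate (-0.23, adjusted p = 0.465), without the 3 arrays of low Gapdh ratio (-0.38, adjusted p = 0.145) and all 3 other scalings (-0.18 to -0.29, adjusted p from 0.114 to 0.270) among them. Leaving out CP-868388 replicate 1, 3 or 4 or vehicle replicate 2, 3 or 4 also ended it, at adjusted p from 0.0521 to 0.0780.

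After 5 days the 94881_AT set of Cdkn1a remained higher under CP-865520, at 122, 136, 109 and 113, against 64, 76, 66 and 110 under vehicle. Of the CP-865520 arrays, 3 lay above all vehicle arrays and replicate 3 lay just below vehicle replicate 4. The mean was 120 ± 11.97 under CP-865520 and 79 ± 21.3 under vehicle (SD, n = 4 each), a ratio of 1.52 and a log2 change of 0.41 ± 0.15 (SE, adjusted p = 0.0279). It did not hold in 6 of 21 alternatives (adjusted p at most 0.0831), when CP-865520 replicate 1 or 2 or vehicle replicate 1, 2 or 3 was left out and with no filter on low values. The 5' over 3' log2 ratio of the beta-actin control was -1.29 ± 0.25 under CP-865520 and -0.80 ± 0.18 under vehicle at 5 days (SD, n = 4 each). With the integrity covariate in limma the call held only narrowly (0.42, adjusted p = 0.0484).

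CP-868388 arrays read 89, 107, 110 and 95 on 94881_AT at 5 days, within the vehicle range, with a log2 change of 0.23 ± 0.15 (SE, adjusted p = 0.229). It passed with quantile normalization (0.39, adjusted p = 0.026) and with centring on the array median (0.39, adjusted p = 0.0265). CP-775146 arrays read 91 and 64, and the log2 change was -0.01 ± 0.18 (SE, adjusted p = 1.00), which turned positive under the other scalings (0.17 to 0.22), with an interval from -0.38 to 0.36 that 2 arrays leave wide.

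The 98067_AT set of Cdkn1a was not called under any compound at 5 days. It read 95 and 69 with CP-775146, 99, 50, 80 and 73 with CP-868388 and 56, 114, 100 and 94 with CP-865520, against 114, 56, 66 and 65 under vehicle. The groups overlapped in all 3 comparisons. The log2 changes were 0.09 with CP-775146 (adjusted p = 0.740), 0.01 with CP-868388 (0.995) and 0.17 with CP-865520 (0.354), and the last passed with centring on the array median (0.35, adjusted p = 0.0404).

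Ccnd1 was not called at 24 h by either probe set. The 94231_AT set read 50, 60, 63 and 71 with CP-775146, 50, 50, 51 and 66 with CP-868388 and 58, 132, 59 and 50 with CP-865520, against 85, 62, 50 and 66 under vehicle. All 3 compounds overlapped with vehicle, and the value of 132 on CP-865520 replicate 2 was the highest of the 30 arrays. The log2 changes were -0.06 with CP-775146 (adjusted p = 0.938), -0.15 with CP-868388 (0.512) and 0.07 with CP-865520 (0.825). Without CP-865520 replicate 2 the last was -0.12.

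The 94232_AT set of Ccnd1 read 77, 119, 100 and 133 with CP-775146, 115, 50, 81 and 127 with CP-868388 and 108, 105, 117 and 105 with CP-865520, against 104, 84, 83 and 104 under vehicle at 24 h. The CP-865520 arrays lay above the vehicle arrays by a gap of 1 unit, with a mean of 109 ± 5.68 under CP-865520 and 93.8 ± 11.8 under vehicle (SD, n = 4 each). That difference of 0.15 on the log2 scale did not pass (adjusted p = 0.550). The changes under CP-775146 and CP-868388 were 0.12 (adjusted p = 0.700) and -0.04 (0.952). Without CP-868388 replicate 2, the array at the floor, the CP-868388 change was 0.13.

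At 5 days the 94231_AT set of Ccnd1 was lower under CP-775146, where both arrays were at the floor of 50, against 109, 53, 102 and 97 under vehicle. The groups did not overlap, but vehicle replicate 2 lay only 3 units above the floor. As the floor gives only an upper bound, the mean was at least 1.80-fold lower under CP-775146 than the 90.2 ± 25.3 under vehicle (SD, n = 4). The log2 change was -0.47 ± 0.18 (SE, adjusted p = 0.0442). It was lost in 13 of 19 alternatives, among them all 3 other scalings (-0.23 to -0.38, adjusted p from 0.0954 to 0.290) and those without CP-775146 replicate 1 (adjusted p = 0.142) or 2 (0.176), when the spread of the lone array left is borrowed from other groups, or without vehicle replicate 1 (0.106), 3 (0.0868) or 4 (0.0856). Without vehicle replicate 2 it was -0.61 with adjusted p = 0.00795.

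The same Ccnd1 set read 59, 84, 50 and 68 under CP-868388 and 77, 84, 50 and 72 under CP-865520 at 5 days. Both groups overlapped with vehicle at its lowest array. The log2 change was -0.27 ± 0.15 (SE, adjusted p = 0.154) under CP-868388 and -0.20 ± 0.15 (adjusted p = 0.281) under CP-865520, and that of CP-868388 passed only without vehicle replicate 2 (-0.41, adjusted p = 0.0291).

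The 94232_AT set of Ccnd1 was not called under any compound at 5 days. It read 81 and 109 with CP-775146, 86, 138, 104 and 114 with CP-868388 and 50, 83, 77 and 63 with CP-865520, against 93, 70, 77 and 104 under vehicle. All groups overlapped with vehicle. The log2 changes were 0.09 with CP-775146 (adjusted p = 0.731), 0.24 with CP-868388 (0.206) and -0.20 with CP-865520 (0.270). The CP-868388 change passed with quantile normalization (0.40, adjusted p = 0.0378) and with centring on the array median (0.39, adjusted p = 0.0219).

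**Figure D2:**
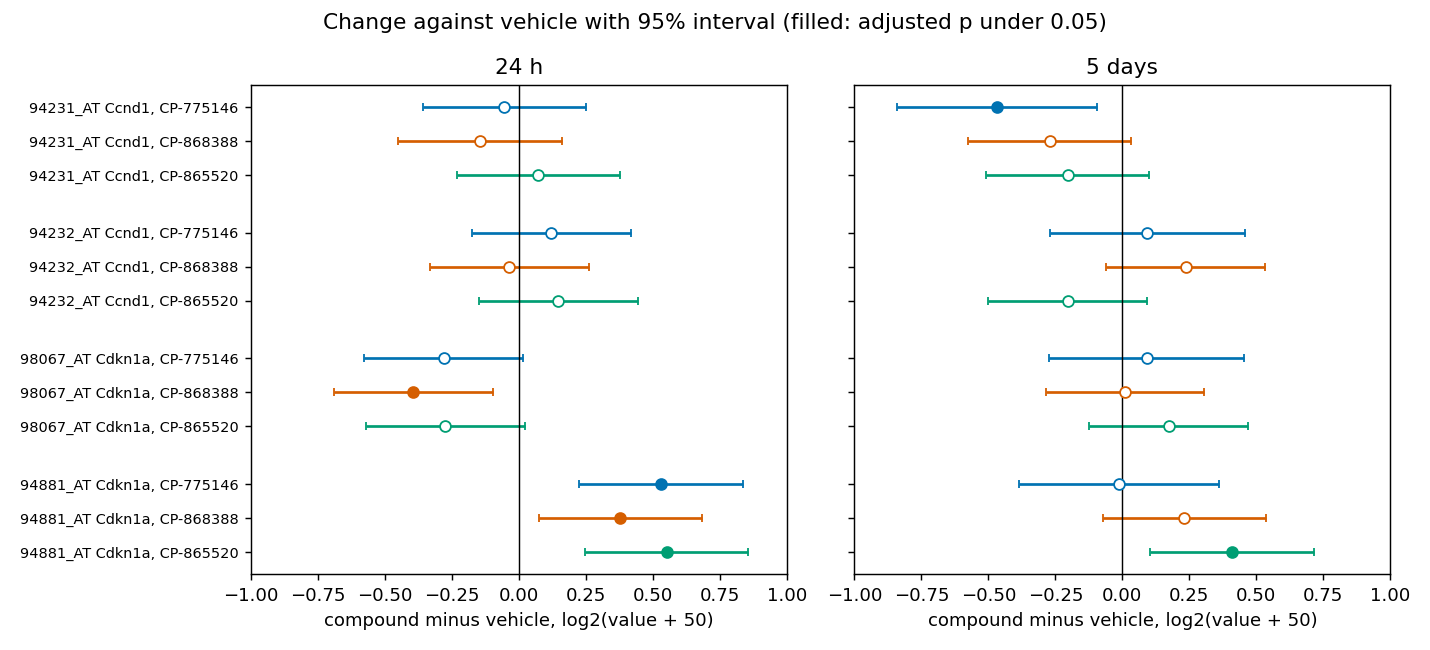
Difference from vehicle on the log2(value + 50) scale (x axis) for each probe set and compound (rows), at 24 h on the left and 5 days on the right, with 95% intervals from limma. Filled points passed an adjusted p of 0.05. The 3 filled points of 94881_AT at 24 h lie at 0.38 to 0.55 and the points of 98067_AT at 24 h lie at -0.40 to -0.28.

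Across the 24 comparisons with vehicle, compound and vehicle were fully separated in 4, with 1 for each probe set. Over all tested probe sets the share so separated was 23.7% with CP-775146, 35.7% with CP-868388 and 21.7% with CP-865520 at 24 h. At 5 days it was 43.7%, 29.8% and 33.9% in the same order of compounds. All 24 intervals lay within 2-fold on the log2(value + 50) scale, between -0.84 and 0.86. As that scale understates changes of dim probe sets, these intervals do not bound the ratio of intensities.

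How far the 2 probe sets of each gene moved together was measured over the arrays. For Ccnd1, 94231_AT and 94232_AT had a Pearson r of 0.12 (permutation p = 0.511, adjusted p = 0.767 over 6 pairs of probe sets) and a Spearman rho of 0.13 (permutation p = 0.479, adjusted p = 0.795), over 30 arrays. Without the 2 arrays farthest from the median of 94231_AT, r was 0.10. It was 0.33 over the 16 arrays of 24 h, 0.06 over the 14 arrays of 5 days and 0.32 for deviations from group means (permutation p = 0.0855, adjusted p = 0.281). Spearman's rho of these deviations was 0.41, with a permutation p = 0.0276 that did not pass after adjustment over 6 pairs (0.165). Under quantile normalization r was -0.05.

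For Cdkn1a, 98067_AT and 94881_AT had r = -0.04 (permutation p = 0.827, adjusted p = 0.827) and rho = -0.03 (permutation p = 0.877, adjusted p = 0.877) over 30 arrays. Without the 2 arrays farthest from the median of 98067_AT, r was -0.07. It was -0.22 over the 24 h arrays, 0.08 over the 5-day arrays and 0.12 for deviations from group means. Many points of 98067_AT lie on the floor, where order is lost, and none of these values had a permutation p under 0.05. Its sign was positive, at 0.09 and 0.10, under quantile normalization and with centring on the array median. Between the genes, the 4 pairs of probe sets had r from -0.19 to 0.31 and none passed after adjustment. The highest, 94231_AT with 98067_AT, was 0.08 without the 2 arrays farthest from the median of 94231_AT, so it rests on those arrays, and it was 0.54 over the 24 h arrays (permutation p = 0.0212, adjusted p = 0.127) and -0.03 over the 5-day arrays. The lowest, 94232_AT with 98067_AT, was -0.42 without the 2 arrays farthest from the median of 94232_AT (permutation p = 0.0288, adjusted p = 0.173), and -0.03 and -0.15 over the 24 h and 5-day arrays.

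**Figure D3:**
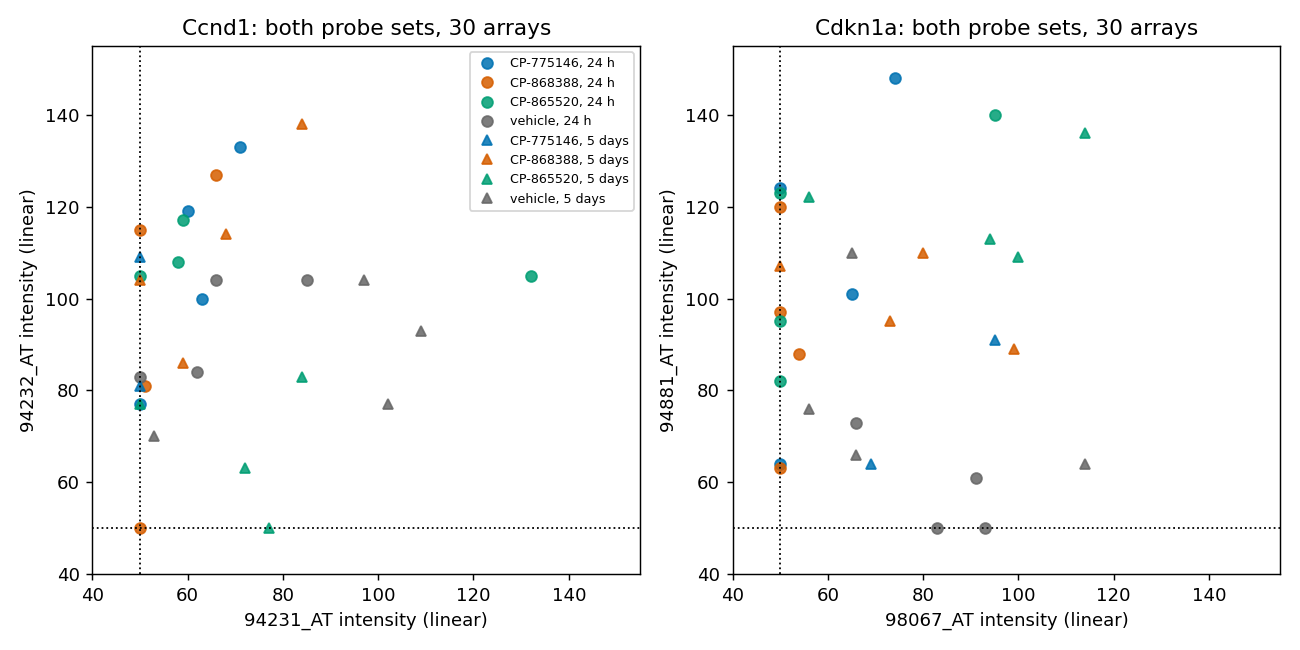
Intensity (linear scale) of one probe set against the other of the same gene on each of 30 arrays, for Ccnd1 on the left and Cdkn1a on the right, with colour for the compound, circles for 24 h and triangles for 5 days. Dotted lines are the floor at 50. For Cdkn1a, the 4 vehicle arrays of 24 h have 98067_AT at 66 to 93 and 94881_AT at 50 to 73.

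The disagreement of the Cdkn1a sets was measured within each array as the log2 value of 94881_AT minus that of 98067_AT, a measure chosen after the values had been seen. At 24 h it averaged 0.51 ± 0.28 with CP-775146, 0.48 ± 0.25 with CP-868388 and 0.53 ± 0.19 with CP-865520, against -0.30 ± 0.26 under vehicle (SD, n = 4 each). All 4 arrays of each compound lay above all vehicle arrays. The differences from vehicle were 0.81, 0.77 and 0.83, each with an exact two-sided permutation p = 0.0286, the smallest that 4 arrays against 4 can give, and 0.0857 after adjustment over 12 such tests. At 5 days the differences were -0.10, 0.22 and 0.24, with exact permutation p = 0.667, 0.457 and 0.40, where 2 arrays against 4 cannot go below 0.133. None passed after adjustment, which the smallest possible p of so few arrays makes hard to reach. Neither these p-values nor their adjustment cover the choice of the measure after the values had been seen. They are therefore no support for a disagreement, and the miss says little. The tests at each time share the same vehicle arrays, and the values are given as a description.

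The same measure for Ccnd1, 94231_AT minus 94232_AT, was also chosen after the values had been seen. It was -0.48 ± 0.12 under CP-868388 and 0.03 ± 0.22 under vehicle at 5 days (SD, n = 4 each), with no overlap (exact permutation p = 0.0286, adjusted p = 0.0857). Under CP-775146 at 5 days it differed from vehicle by -0.56 (exact permutation p = 0.133) and under CP-865520 by -0.00085 (p = 1.00 in the same exact test). At 24 h the differences lay between -0.18 and -0.07, with exact permutation p from 0.171 to 0.800. With quantile normalization that of CP-775146 at 24 h was -0.20, with no overlap (exact permutation p = 0.0286, adjusted p = 0.0686). How often other pairs of probe sets separate in this way was not counted.

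Between compounds, which were given at the same dose and time, 24 differences of the members were tested with limma and 0 passed. There were 2 with an unadjusted p under 0.05. One was the 94232_AT set of Ccnd1 at 5 days, higher under CP-868388 at 86, 138, 104 and 114 than under CP-865520 at 50, 83, 77 and 63, with no overlap. The log2 difference was 0.44, with a 95% interval from 0.14 to 0.74 and adjusted p = 0.397. Over all probe sets the arrays of these groups did not overlap in 3.42%. The other was the 94881_AT set of Cdkn1a at 5 days, at 91 and 64 under CP-775146 and 122, 136, 109 and 113 under CP-865520, also with no overlap, which 7.02% of all probe sets showed. Its log2 difference was -0.42, with an interval from -0.79 to -0.05 and adjusted p = 0.886.

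The other 22 differences between compounds had unadjusted p over 0.05, and all 24 intervals lay between -0.79 and 0.74 on the log2(value + 50) scale. The intervals thus held ratios from 0.577 to 1.67 on that scale, and a missed threshold does not show equal action of the compounds. The share of all probe sets called at 24 h was 16.4% for CP-775146 against CP-868388, 0.1% for CP-775146 against CP-865520 and 27.9% for CP-868388 against CP-865520. At 5 days the shares were 0.0753%, 0.0251% and 0.0628%.

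The change of each response from 24 h to 5 days was tested as an interaction, and none of the 12 passed. The largest was that of 94881_AT (Cdkn1a) under CP-775146, at -0.54 ± 0.23 (SE, adjusted p = 0.174), where the response was 0.53 at 24 h and -0.01 at 5 days. For 98067_AT, the other Cdkn1a set, the interactions were 0.37 with CP-775146 (adjusted p = 0.346), 0.40 with CP-868388 (0.297) and 0.45 with CP-865520 (0.128). The last passed in 4 of 28 alternatives, without CP-865520 replicate 2 at 24 h (0.58, adjusted p = 0.0458), without vehicle replicate 1 at 5 days (0.59, adjusted p = 0.0410), with centring on the array median (0.62, adjusted p = 0.0261) and with centring on probe sets never at the floor (0.56, adjusted p = 0.0474). For Ccnd1, the interactions of 94231_AT lay between -0.41 and -0.13 and those of 94232_AT between -0.35 and 0.27. Of all probe sets, 4.81%, 3.54% and 17.3% were called under CP-775146, CP-868388 and CP-865520.

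Between vehicle livers of the different times no member passed the test, and none had an unadjusted limma p under 0.05, where 22.7% of all probe sets were called. The change from 24 h to 5 days was 0.27 for 94231_AT (adjusted p = 0.197) and -0.08 for 94232_AT (0.730), and it was -0.11 for 98067_AT (0.640) and 0.24 for 94881_AT (0.242).

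In the order of mean intensity over the 8 groups, 94881_AT (Cdkn1a) ran from 120 ± 11.97 under CP-865520 at 5 days through 110 under CP-865520 and 109 under CP-775146 at 24 h, 100.2 under CP-868388 at 5 days and 92 under CP-868388 at 24 h, then 79 under vehicle and 77.5 under CP-775146 at 5 days, to 58.5 under vehicle at 24 h. For 98067_AT the order ran from 91 ± 24.8 under CP-865520 at 5 days to 51 ± 2.0 under CP-868388 at 24 h, with the 3 compounds of 24 h in the lowest places. The Ccnd1 set 94231_AT ran from 90.2 ± 25.3 under vehicle at 5 days to 50 with CP-775146 at 5 days, and 94232_AT from 110.5 ± 21.7 with CP-868388 to 68.2 ± 14.8 with CP-865520, both at 5 days. Neighbours in each order differed by less than the larger SD of the pair in every case but 1, the lowest place of 94232_AT, where CP-865520 at 5 days averaged 68.2 ± 14.8 and vehicle at 5 days 86 ± 15.4 (SD, n = 4 each).

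**Figure D4:**
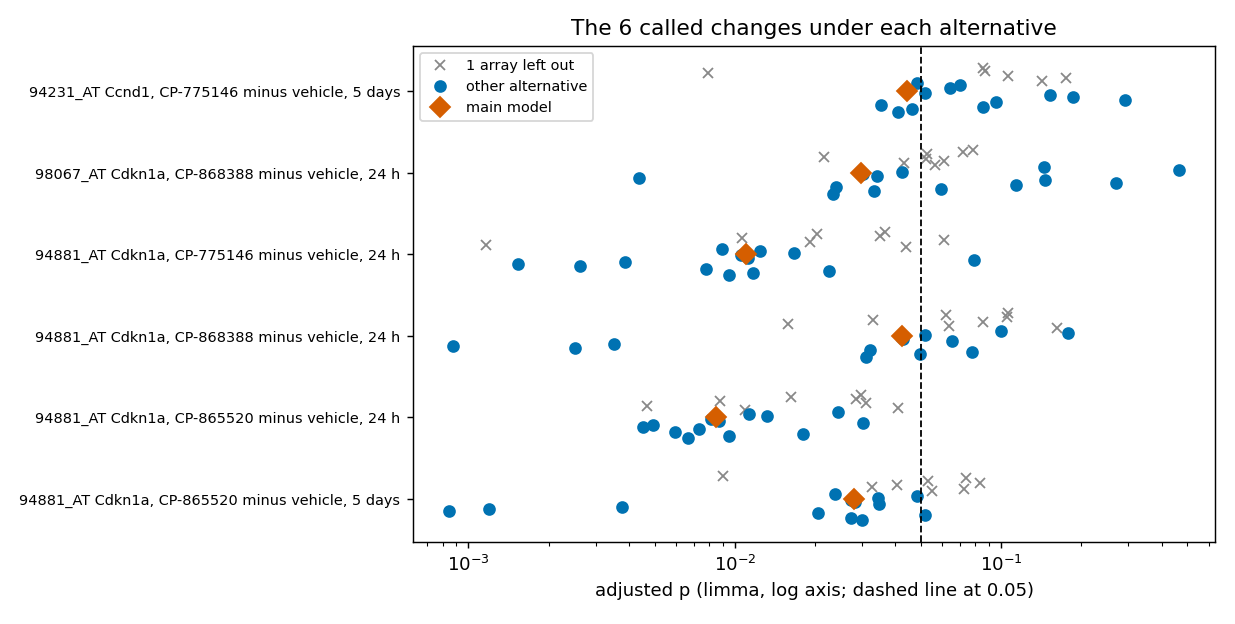
Adjusted p from limma (x axis, log scale) of the 6 called changes against vehicle with all arrays and the settings described (diamond), with 1 array left out (crosses) and under the other alternatives (circles). The dashed line is 0.05. All points of 94881_AT under CP-865520 at 24 h lie left of the line, up to 0.0408, and those of 94231_AT under CP-775146 at 5 days reach 0.290.

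The probe sets most like each member were sought by Pearson r of log2(value + 50) over the 30 arrays among 7959 others, and are named by ID because no gene is paired with them. They are the highest of many values on these same arrays, so r and any likeness of the group means are a description. For 94881_AT (Cdkn1a) they were 97370_AT (r = 0.77, rho = 0.71) and 93762_AT (r = 0.72, rho = 0.65). At 24 h, 97370_AT averaged 482 ± 64.2 with CP-775146, 459 ± 24.1 with CP-868388 and 468 ± 34.5 with CP-865520, against 381.5 ± 14.0 under vehicle (SD, n = 4 each). For 98067_AT (Cdkn1a) they were 104739_AT (r = 0.66, rho = 0.71) and 160825_AT (r = 0.60, rho = 0.59), and 104739_AT averaged 583 ± 24.4, 519 ± 78.4 and 552 ± 61.7 under the same compounds, against 707 ± 31.0 under vehicle.

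For the Ccnd1 set 94232_AT the most alike were 96573_AT (r = 0.60, rho = 0.58) and 102321_AT (r = 0.55, rho = 0.57). For 94231_AT they were 93184_AT (r = 0.75, rho = 0.57) and 102477_AT (r = 0.70, rho = 0.58), both at or near the floor in most groups. No probe set was among the 5 most alike for both sets of a gene.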

How the data were processed

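Liver RNA on 30 Affymetrix MG_U74Av2 arrays was analysed from the deposited table of 12488 probe sets. The authors deposited intensities on a linear scale made with MAS5, per the submitters' processing notes. The version of MAS5, its target intensity and the origin of the floor of 50 are not stated in those notes. No arrays held identical values. Groups came from the sample titles.

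The 66 control probe sets were left out, and 7963 probe sets above 50 on at least 2 arrays were tested. Values were taken as log2(value + 50) and fitted with limma 3.58.1 in R 4.3.3, with 8 group means over all 30 arrays, an intensity trend and Benjamini-Hochberg adjustment, called at 0.05. Intervals are 95%. Exact permutation tests, and 100000 permutations for correlations, are two-sided and used SciPy 1.17.1 in Python 3.11.15, and plots used matplotlib 3.10.9. The limma step was also run on simulated data, but the outcome is not given here. The number of arrays limits the precision. Only the design text says that arrays are separate mice. In limma each difference was set against the spread between arrays within groups, and the permutation tests shuffled arrays.

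The members and lists were chosen with earlier results of these data known. No table used here pairs probe sets with genes, so planned gene lists, tissue markers and naming by symbol were not applied, and the tissue label was not checked against markers. The rule for other named probe sets was the highest Pearson r with a member, at most 2 IDs each. The integrity covariate was the mean of the standardized 5' over 3' log2 ratios of the Gapdh, beta-actin and pyruvate carboxylase controls. Alternatives were other pseudocounts (1 and 100), filters, scalings, limma settings, a replicate block, an integrity covariate and leaving out each array. Correlations of same-numbered arrays' deviations lay between -0.196 and 0.392. Arrays of different numbers were not correlated for reference, so these values cannot show whether the numbers pair arrays. The main fit took the arrays as unpaired.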

Additional observations from a re-analysis of the deposited data

Results flagged for a closer look

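In 4 of the 28 sets of 4 arrays tested, 1 array lay farther from the others than Dixon's 95% critical value of 0.829 allows. Of these, 2 concern replicate 2 of CP-865520 at 24 h, which read 132 on the Ccnd1 set 94231_AT, where the other 3 arrays read 58, 59 and 50, and 95 on the Cdkn1a set 98067_AT, where the others were at 50. The remaining 2 lie under CP-868388 at 24 h, where 94231_AT read 66 on replicate 4 beside 50, 50 and 51, and 98067_AT read 54 on replicate 2 beside 3 arrays at 50. Where the other arrays share the floor, a small gap is enough.

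The Ccnd1 set 94232_AT lay above the vehicle mean on every CP-865520 array at 24 h and below it on every CP-865520 array at 5 days. The difference between the responses was -0.35 ± 0.20 (SE) and did not pass the limma interaction test (adjusted p = 0.237).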

How the results depend on the processing

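Values are differences on the log2 scale of the setting, and the causes of the changes below were not tested. Of the 6 calls against vehicle, 1 was kept in every alternative (94881_AT under CP-865520 at 24 h, 0.40 to 0.89) and 0 turned direction. The dim signal limits the members: where a group holds arrays at the floor, the size of its change is uncertain, and 2 arrays of CP-775146 at 5 days give wide intervals.

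Centring on the array median shifted the median change of all tested probe sets by 0.21 (CP-868388, 24 h), 0.23, 0.15 and 0.17 (CP-775146, CP-868388 and CP-865520, 5 days). It changed the share of calls that were higher under CP-868388 at 24 h to 70.2%, against 30.6% without centring, and under CP-775146 at 24 h to 55.7%, against 36.8%. At 5 days the shares were 72.7%, 68.8% and 67.9% under CP-775146, CP-868388 and CP-865520, against 33.2%, 37.0% and 36.3%. With quantile normalization they were 46.4% under CP-868388 at 24 h and 52.4%, 49.3% and 49.97% at 5 days, and with arrays centred on probe sets never at the floor 59.6% and 63.2%, 49.9% and 54.9%.

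With centring on the array median, the lost calls were -0.18 (98067_AT, CP-868388, 24 h) and -0.23 (94231_AT, CP-775146, 5 days). The gained calls against vehicle, all at 5 days, were 0.39 for 94232_AT and 0.39 for 94881_AT under CP-868388 and 0.35 for 98067_AT under CP-865520. The CP-865520 response difference of 98067_AT, 5 days minus 24 h, was also gained (0.62). Signs turned against vehicle for 94231_AT at 24 h (0.037 under CP-775146 and 0.068 under CP-868388), 94232_AT under CP-868388 at 24 h (0.18) and 94881_AT under CP-775146 at 5 days (0.22). Between compounds at 24 h they turned for CP-775146 minus CP-868388 in 94231_AT (-0.031) and 98067_AT (-0.0071), for CP-775146 minus CP-865520 in 94232_AT (0.064), 94881_AT (0.069) and 98067_AT (0.084), and for CP-868388 minus CP-865520 in 94232_AT (0.029), 94881_AT (0.039) and 98067_AT (0.092). The response differences turned to 0.11 (94232_AT, CP-775146) and 0.027 (94881_AT, CP-865520).

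With arrays centred on the 4100 probe sets never at the floor, the lost calls were -0.24 (98067_AT, CP-868388, 24 h) and -0.29 (94231_AT, CP-775146, 5 days), and the CP-865520 response difference of 98067_AT was gained (0.56). Signs turned to 0.0083 (94231_AT) and 0.12 (94232_AT) under CP-868388 at 24 h and to 0.17 (94881_AT, CP-775146, 5 days). Between compounds at 24 h they turned to -0.020 (94231_AT, CP-775146 minus CP-868388), to 0.011, 0.016 and 0.031 (94232_AT, 94881_AT and 98067_AT, CP-775146 minus CP-865520) and to 0.027 (98067_AT, CP-868388 minus CP-865520), and the CP-775146 response difference of 94232_AT to 0.11.

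With quantile normalization, the lost calls were -0.29 (98067_AT, CP-868388, 24 h) and -0.38 (94231_AT, CP-775146, 5 days), and the gained calls under CP-868388 at 5 days were 0.40 (94232_AT) and 0.39 (94881_AT). Signs turned against vehicle to 0.0043 (94231_AT, CP-775146, 24 h), 0.13 (94232_AT, CP-868388, 24 h) and 0.22 (94881_AT, CP-775146, 5 days). Between compounds at 24 h they turned to 0.064, 0.068 and 0.021 (94232_AT, 94881_AT and 98067_AT, CP-775146 minus CP-865520) and 0.025 (94881_AT, CP-868388 minus CP-865520), and the response differences to 0.13 (94232_AT, CP-775146) and 0.087 (94881_AT, CP-865520).

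With the integrity covariate, the lost calls were 0.41 (94881_AT) and -0.23 (98067_AT) under CP-868388 at 24 h and -0.42 (94231_AT, CP-775146, 5 days). Signs turned to 0.031 (94231_AT) and 0.054 (94232_AT) under CP-868388 at 24 h, and to -0.057 (94231_AT) and -0.020 (98067_AT) for CP-775146 minus CP-868388 at 24 h. The count of called probe sets under CP-868388 at 24 h was 1538, against 3234. Without the 3 arrays of low Gapdh ratio, the lost calls were 0.40 (94881_AT) and -0.38 (98067_AT) under CP-868388 at 24 h. Signs turned to 0.021 (94881_AT, CP-775146 minus CP-865520, 24 h) and, for 94231_AT minus 94232_AT at 24 h, to 0.012 (CP-868388) and 0.0063 (CP-865520).

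With no filter, the lost calls were 0.38 (94881_AT) and -0.40 (98067_AT) under CP-868388 at 24 h, -0.47 (94231_AT, CP-775146, 5 days) and 0.41 (94881_AT, CP-865520, 5 days), where 12422 probe sets were tested. With only the compared groups they were 0.53 (94881_AT, CP-775146) and 0.38 (94881_AT, CP-868388) at 24 h and -0.47 (94231_AT, CP-775146, 5 days), and the count under CP-775146 at 5 days was 1734, against 2958. With no intensity trend -0.47 (94231_AT, CP-775146, 5 days) was lost. With a pseudocount of 1, signs turned to 0.0040 (98067_AT, CP-775146 minus CP-865520, 24 h) and 0.018 (94231_AT minus 94232_AT, CP-865520, 5 days).

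The replicate numbers were not taken to pair arrays. With a replicate block, the lost calls were 0.38 (94881_AT, CP-868388, 24 h, adjusted p = 0.0515) and -0.50 (94231_AT, CP-775146, 5 days, adjusted p = 0.0645) in limma. The sign turned to 0.0016 (94881_AT, CP-775146, 5 days). The block was fitted within each time with replicate 1 as its baseline, so vehicle at 5 days minus 24 h then compares replicate 1 levels. Its value for 98067_AT, 0.12, is therefore not a change of the group means.

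The correlation of 98067_AT with 94881_AT turned positive over the 5-day arrays (0.075), with centring on the array median (0.10), for deviations from group means (0.12) and with quantile normalization (0.087). That of 94231_AT with 94232_AT was -0.046 with quantile normalization. Over the 5-day arrays r was -0.028 (94231_AT with 98067_AT), -0.037 (94231_AT with 94881_AT) and -0.15 (94232_AT with 94881_AT), and for deviations 0.022 (94232_AT with 98067_AT).

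Leaving out 1 array at a time gave these ranges for results that changed call or sign. Against vehicle at 24 h they were 0.42 to 0.68 (94881_AT, CP-775146), 0.29 to 0.48 (94881_AT, CP-868388), -0.46 to -0.36 (98067_AT, CP-868388), -0.41 to -0.23 (98067_AT, CP-865520), -0.15 to 0.13 (94232_AT, CP-868388), -0.12 to 0.16 (94231_AT, CP-865520) and -0.12 to 0.021 (94231_AT, CP-775146). Against vehicle at 5 days they were, under CP-775146, -0.61 to -0.40 (94231_AT), -0.047 to 0.23 (94232_AT), -0.052 to 0.23 (98067_AT) and -0.16 to 0.14 (94881_AT), under CP-868388, -0.41 to -0.20 (94231_AT) and -0.078 to 0.15 (98067_AT), and under CP-865520, 0.35 to 0.52 (94881_AT). The count under CP-775146 at 5 days lay between 1686, without its replicate 2, and 3085.

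Between compounds at 24 h the ranges were, for CP-775146 minus CP-865520, -0.10 to 0.072 (94232_AT), -0.067 to 0.13 (98067_AT), -0.14 to 0.13 (94881_AT) and -0.22 to 0.069 (94231_AT), for CP-775146 minus CP-868388, -0.0056 to 0.27 (94232_AT), and for CP-868388 minus CP-865520, -0.16 to 0.014 (98067_AT). At 5 days they were -0.062 to 0.22 (98067_AT, CP-775146 minus CP-868388) and -0.23 to 0.059 (98067_AT, CP-775146 minus CP-865520). The CP-775146 response difference of 94232_AT ranged from -0.17 to 0.11, and the CP-865520 response difference of 98067_AT from 0.37 to 0.59.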
